A study of Rattus norvegicus with 14 samples.

Results

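Elastic fibre and microfibril genes were followed in the soleus of rats, a calf muscle of mostly slow fibres, after tenotomy, the cutting of its tendon. They are the named set Eln, Fbn1, Mfap4, Mfap5, Fbln1, Fbln2, Fbln5, Emilin1 and Fn1. All probe sets that carried exactly 1 gene symbol, that of a member, were used: 12 probe sets for 9 of the 14217 genes with such a probe set. All 9 passed the filter on low signals, as did 11064 genes in all. Whole muscles of male Sprague Dawley rats were measured on 14 Affymetrix arrays, 1 per muscle, and no further allele or agent was given in the labels. The control group held 4 left muscles, those of rats 62 and 61 among them. The short-term group held 6 right muscles, tenotomized for 1 week (rats 12 and 13), 2 weeks (rats 25 and 27), 3 weeks (rat 32) or 4 weeks (rat 42). The long-term group held 4 right muscles, tenotomized for 6 weeks (rats 61 and 62), 16 weeks or 22 weeks (1 rat each). Rats 61 and 62 thus gave a control and a 6-week muscle each, so 12 rats gave 14 muscles. The labels give no age and do not say whether the other control rats were tenotomized on the right side.

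An elastic fibre has a core of crosslinked elastin laid onto a scaffold of microfibrils, whose backbone is fibrillin. Fibulins, emilins and microfibril-associated glycoproteins lie along the microfibrils and at their border with elastin, and a fibronectin matrix is needed by many cells to assemble fibrillin. In skeletal muscle such fibres run in the connective tissue around fibres and bundles, in vessel walls and towards the tendon, and microfibrils also hold latent TGF-beta in the matrix.

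The deposited values are MAS5 signals, a linear measure of probe set brightness. Their array medians ran from 29.7 to 49.1, so all signals printed here were shifted to a common array median, and signals under 9.69 were raised to that floor. After that scaling the median gene tested still differed by -0.34 on the log2 scale in short-term against control muscle. It differed by 0.02 in long-term against control muscle and by 0.37 in long-term against short-term muscle. So each change below is the change less that of the median gene, and each p-value (limma, Benjamini-Hochberg over all genes tested, threshold 0.05) tests the scaled change without that subtraction. The spiked-in poly-A transcripts of the array kit read 97.3 to 114 on the controls, 137 to 467 on the short-term arrays and 112 to 225 on the long-term arrays. Gapdh, whose 3' to 5' signal ratio rises as RNA decays, had ratios of 1.38 to 2.78, 1.16 to 1.61 and 1.38 to 2.78 in the same order of groups. The like ratio of actin went the other way, with 1.47 to 2.37 on the controls, 1.97 to 3.87 on the short-term arrays and 1.39 to 3.74 on the long-term arrays. The 22-week array stood apart from its group in several of these measures, with values given beside its results. The part of any of them in the results was not tested. Slow fibre markers were bright on every array, with a summed signal of 7 genes between 43290 and 88542. Short-term and control muscles came from different rats, so cohort and tenotomy cannot be told apart there. Nothing in the labels says how the animals were assigned, and the p-values set each mean difference against the spread between these muscles.

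During the early weeks of tenotomy 8 of the 9 genes rose, and for all 8 the 6 short-term values lay above the 4 control values. The median change of the 9 was 1.99 on the log2 scale, against 0 for all genes by construction. Of all genes tested 12.3% were called higher, 39.6% lower and 51.9% in either direction, and 6.92% were higher without overlap. The 9 genes were chosen with earlier results of these data known, so the shares describe and do not test the set. The split of all calls depends on the scaling: 1362 genes were higher and 4383 lower, but 2584 and 2015 with arrays scaled to a common 2% trimmed mean, under which the same 8 genes were called. Fbln5 was the gene that did not pass the test, and Eln rose on the brighter of its probe sets only. That probe set was the brighter through the short-term arrays alone. In long-term muscle none of the 9 differed from control by the test, while 8 were lower than in short-term muscle. The same 8 genes were already higher at 1 week. In mean signal 8 of the 9 lay between the control and short-term levels at 6 weeks, and 7 read below all controls on the single array at 22 weeks.

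**Figure D1:**
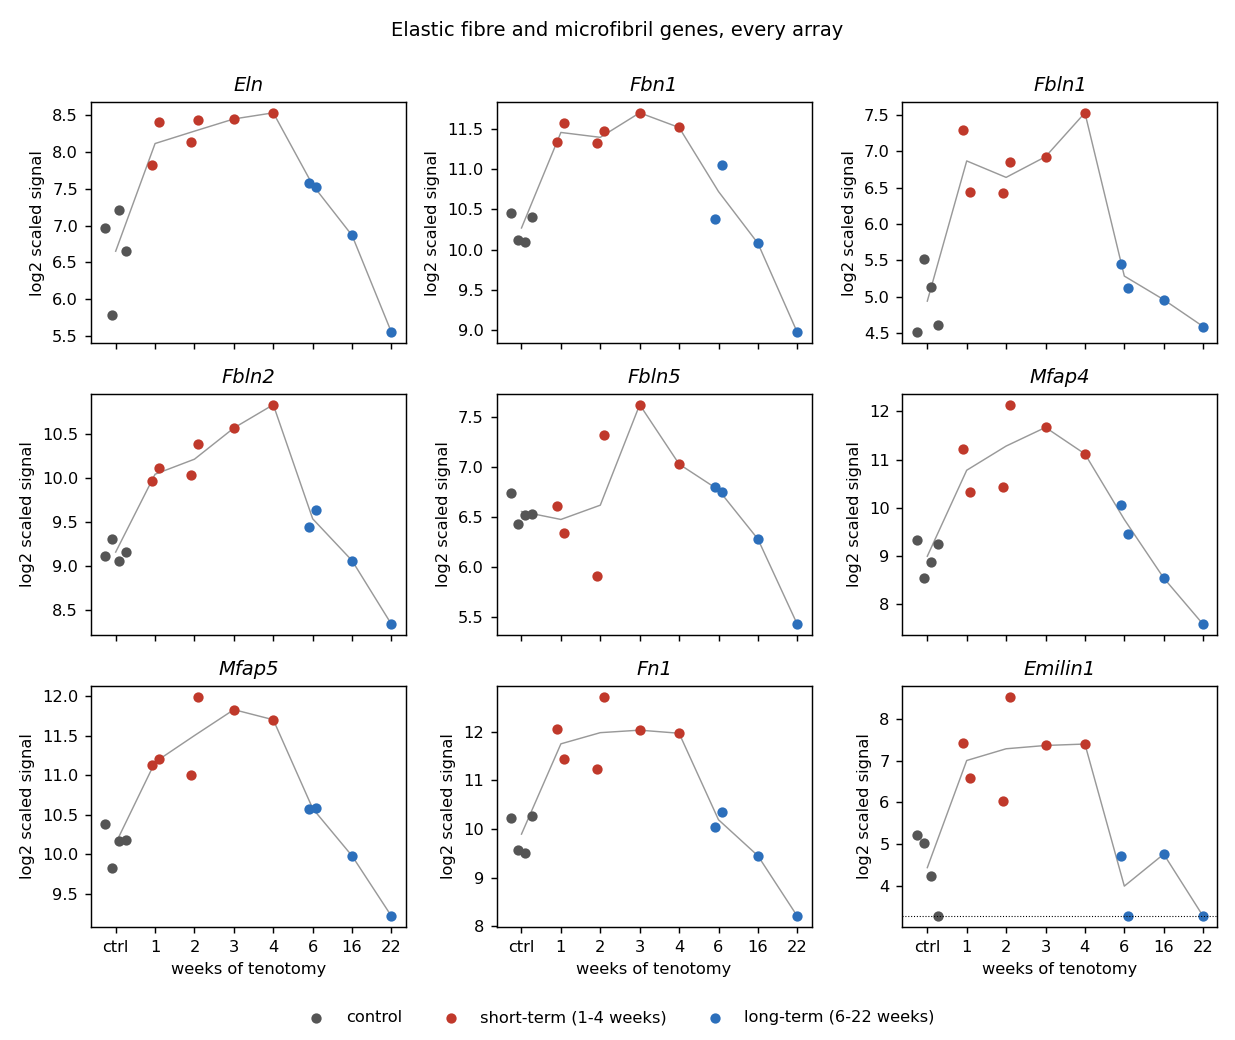
Log2 scaled signal of each gene (y axis, own range per panel) on every array, by weeks of tenotomy (x axis, not to scale in time). Points are arrays, grey for control, red for short-term and blue for long-term muscle; the line joins the mean at each time and the dotted line in the Emilin1 panel is the signal floor of 9.69. The red points lie above all grey ones in each panel except that of Fbln5, and the 22-week point is the lowest of 14 in 7 panels.

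Promoters of 4 of the 9 genes were in the RefSeq table used here (GRCr8), namely those of Fbn1, Fbln2, Mfap5 and Fbln5; Eln, Fbln1, Mfap4, Fn1 and Emilin1 were not. They are shown because Fbn1, Fbln2 and Mfap5 rose together while Fbln5 did not pass the test. Each is the 250 bases before the start site, written 5′ to 3′ on the strand of the gene, and capitals mark matches on either strand to the motifs searched. Fbn1 lies at chr3:133203391-133203640 on the minus strand, Fbln2 at chr4:125261409-125261658 on the plus strand, Mfap5 at chr4:157399669-157399918 on the plus strand and Fbln5 at chr6:126742707-126742956 on the minus strand.
Fbn1: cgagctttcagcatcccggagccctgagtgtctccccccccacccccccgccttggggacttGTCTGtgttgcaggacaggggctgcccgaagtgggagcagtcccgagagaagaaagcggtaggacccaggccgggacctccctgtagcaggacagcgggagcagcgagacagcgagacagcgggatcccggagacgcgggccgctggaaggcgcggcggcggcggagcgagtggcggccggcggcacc
Fbln2: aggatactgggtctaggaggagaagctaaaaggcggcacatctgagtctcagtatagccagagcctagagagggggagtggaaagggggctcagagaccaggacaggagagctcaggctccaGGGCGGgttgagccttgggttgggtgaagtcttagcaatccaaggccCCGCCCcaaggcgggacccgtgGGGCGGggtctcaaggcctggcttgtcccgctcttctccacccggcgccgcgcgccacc
Mfap5: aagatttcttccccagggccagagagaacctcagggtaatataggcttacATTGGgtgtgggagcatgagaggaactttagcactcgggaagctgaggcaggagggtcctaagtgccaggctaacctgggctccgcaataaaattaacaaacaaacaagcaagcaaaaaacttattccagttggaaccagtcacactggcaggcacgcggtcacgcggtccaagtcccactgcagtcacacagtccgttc
Fbln5: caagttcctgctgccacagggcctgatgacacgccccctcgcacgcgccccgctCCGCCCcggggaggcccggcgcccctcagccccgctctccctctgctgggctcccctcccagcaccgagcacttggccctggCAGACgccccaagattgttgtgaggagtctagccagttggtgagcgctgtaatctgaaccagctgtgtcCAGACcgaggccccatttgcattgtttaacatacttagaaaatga
In all 6 motifs were searched. The TATA box was searched as TATAAA. The GC box was searched as GGGCGG. The box bound by the factor NF-Y was searched as CCAAT. The AP-1 site was searched as TGANTCA. The element bound by Smad proteins, which act downstream of TGF-beta, was searched as CAGAC. The site bound by TEAD factors was searched as CATTCC. No 2 matches overlap in these windows, and positions are those of the leftmost base, with -1 just before the start site.

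The Fbn1 window held CAGAC 1 time, at -188 from the start site. The Fbln2 window held GGGCGG 3 times, at -128, -81 and -59. The Mfap5 window held CCAAT 1 time, at -200. In the Fbln5 window GGGCGG occurred 1 time, at -196, and CAGAC 2 times, at -114 and -45. No motif was found in all of the 3 genes that rose, and CAGAC stood both in Fbn1 and in Fbln5, which did not pass the test. Among all 33469 promoters of the table, windows of the same length held TATAAA in 12.9%, GGGCGG in 30.5% and CCAAT in 34%. They held TGANTCA in 6.34%, CAGAC in 42.9% and CATTCC in 12.1%. The TATA box, AP-1 and TEAD motifs were in none of the 4 windows. The GC content was 71.2% for Fbn1, 64% for Fbln2, 63.2% for Fbln5 and 51.6% for Mfap5, beside a median of 51.2% over all promoters. A match is a description of these letters only.

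Eln encodes tropoelastin, the soluble precursor of the elastin core. Its brighter probe set (1388111_at) read 125, 55.1, 148 and 100.3 on the controls in a fixed order that is kept below (rat 62 leads and rat 61 closes it). On the short-term arrays it ran from 226 to 370 with a median of 342. Every short-term value lay above every control, and the lowest was that of rat 12 at 1 week. The change was 1.99 on the log2 scale (SE 0.34, n = 6 and 4, limma adjusted p = 9.6e-04). This probe set stands for Eln through its short-term values alone, so the choice favoured the rise.

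Fbn1 encodes fibrillin, the backbone of the microfibril. It read 1404, 1113, 1094 and 1358 on the controls and 2560 to 3329 (median 2885) on the short-term arrays. The groups were far apart and each was narrow. The change was 1.56 (SE 0.27, limma adjusted p = 0.0013), close to the smallest among the genes that passed.

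Mfap5 encodes a small glycoprotein that binds fibrillin along the microfibril. Its signal was 1331, 907, 1155 and 1158 on the controls and 2064 to 4090 (median 2806) on the short-term arrays. All short-term arrays were higher, with rat 27 at 2 weeks the highest and rat 25 at the same week the lowest. The change was 1.68 (SE 0.26, limma adjusted p = 4.8e-04).

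Mfap4 encodes a fibrinogen-related glycoprotein that binds both elastin and fibrillin. Control values were 646, 373, 468 and 606, and short-term values 1294 to 4500 with a median of 2300. The groups did not overlap, and the short-term arrays were more spread than for Fbn1. Mfap4 rose by 2.49 (SE 0.41, limma adjusted p = 4.6e-04).

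The 3 fibulins, glycoproteins that link elastin, microfibrils and basement membranes, did not all behave alike by the test. Fbln1, which binds fibronectin and is found in elastic fibres and basement membranes, read 22.7, 45.7, 34.9 and 24.3 on the controls and 85.9 to 185 (median 119) on the short-term arrays. The groups were well separated although 2 controls lay close to 22.0, the signal used to filter dim genes. Its change was 2.32 (SE 0.27, limma adjusted p = 3.5e-05), the smallest adjusted p of the 9.

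Fbln2, found at the border of elastin and microfibrils, read 552, 633, 529 and 570 on the controls and 1002 to 1822 (median 1217) on the short-term arrays. All 6 short-term arrays were higher, with the 4-week muscle the highest and the 3-week muscle next. The change of 1.51 (SE 0.22, limma adjusted p = 4.9e-04) was the smallest among the 8 genes that passed.

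Fbln5, which binds tropoelastin and the crosslinking enzyme Loxl1 and is needed for elastic fibre assembly, read 107, 86.4, 91.6 and 92.2 on the controls. In time order its short-term values were 97.6, 81.2, 60.3, 160, 197 and 130. Thus 2 arrays (rat 13 at 1 week and rat 25 at 2 weeks) lay below all controls, 3 lay above all controls and 1 lay among them. The change of 0.59 (SE 0.31) relative to the median gene had a 95% interval from -0.07 to 1.25, which on that measure reaches more than a doubling. The test is of the scaled change, which was 0.25 (limma adjusted p = 0.51). A miss of the threshold does not show that Fbln5 stayed the same.

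Emilin1 encodes a glycoprotein at the border of elastin and microfibrils that also binds the precursor of TGF-beta. It was dim in control muscle, at 37.0, 32.9, 18.7 and the floor. On the short-term arrays it read 65.6 to 371 with a median of 167. No short-term array overlapped the controls, and rat 27 stood far above the other 5. Its change of 3.13 (SE 0.47, limma adjusted p = 2.0e-04) was the largest of the 9, but the control mean of 21.7 lies under that filter signal, so the size rests on dim values.

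Fn1 encodes fibronectin, the glycoprotein whose fibrils serve as a scaffold for other matrix proteins. Control values were 1201, 758, 733 and 1235, and short-term values 2417 to 6756 with a median of 4097. The groups did not overlap, and again rat 27 was the highest and rat 25 the lowest. The change was 2.36 (SE 0.35, limma adjusted p = 2.3e-04).

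**Figure D2:**
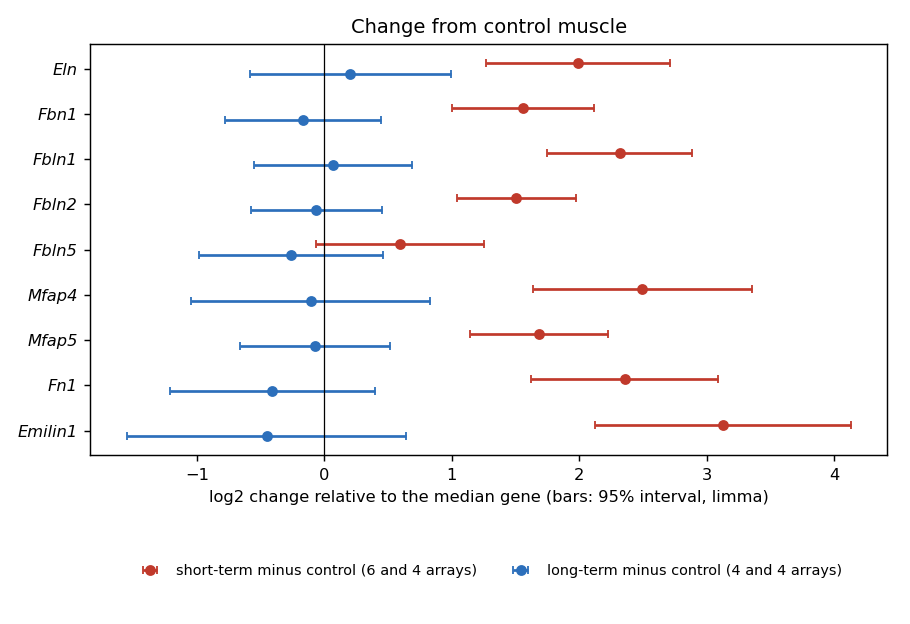
Log2 change from control relative to the median gene (x axis) for each gene (y axis), with 95% intervals from limma as bars; red is short-term and blue long-term muscle. Red intervals lie above 0 for 8 genes and reach from -0.07 to 1.25 for Fbln5, while all 9 blue intervals span 0.

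The arrays of the same week differed from each other, and those of 2 weeks did so most for Emilin1, Fn1 and Mfap4. Rat 27 had the highest signal of the 14 arrays for Mfap4, Mfap5, Fn1 and Emilin1, and rat 25 the lowest of the short-term arrays for Fbn1, Fbln1, Mfap5, Fbln5, Fn1 and Emilin1. Emilin1 read 65.6 in rat 25 and 371 in rat 27, Fn1 2417 and 6756, and Mfap4 1372 and 4500. For Eln (281 and 344) and Fbn1 (2560 and 2836) the same muscles were much closer. Summed signals of 10 fibroblast markers were 26473 and 41938 in rats 25 and 27, and those of 5 tendon markers were 6384 and 14464; their part in the difference was not tested.

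The long-term comparison asks what remained different after 6 to 22 weeks. None of the 9 genes passed the test against control, with limma adjusted p of 1 for each, and none passed an unadjusted p under 0.05. Of all 11064 genes 0% were called, and 1.97% (218 genes) had an unadjusted p under 0.05. The median change of the 9 was -0.11, with a range from -0.45 for Emilin1 to 0.20 for Eln. These intervals leave room for changes in either direction: that of Fbln2, the narrowest, ran from -0.58 to 0.45, and that of Emilin1, the widest, from -1.55 to 0.64.

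The long-term arrays fell over a wide range. In the order 6 weeks (rats 61 and 62), 16 weeks and 22 weeks, Eln read 191, 184, 117 and 46.8. Fbn1 read 1339, 2132, 1082 and 502, and Fn1 1053, 1297, 699.8 and 296. In each of these genes the 22-week array was the lowest of all 14. Mfap4 read 1061, 707, 374 and 192, and Mfap5 1528, 1534, 1010 and 595. Fbln2 read 692, 792, 532 and 322. In these genes, too, the 6-week muscles were the highest of the group and the 22-week muscle the lowest. Fbln5 read 111, 107, 77.7 and 43.1, Fbln1 43.8, 34.6, 31.1 and 24.0, and Emilin1 26.3, the floor, 27.2 and the floor. The long-term arrays overlapped the controls for all 9 genes.

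Long-term and short-term muscle were clearly apart. The same 8 genes were lower in long-term muscle, each without overlap between the 4 and the 6 arrays, where 12.1% of all genes were called lower and 5.96% were lower without overlap. Over all genes 1335 were lower and 4693 higher, or 2591 and 1895 with the trimmed mean. Emilin1, the microfibril border protein, changed by -3.59 (SE 0.47, limma adjusted p = 7.0e-05), a size that rests on dim values because 2 of the 4 long-term arrays lay at the floor and the long-term mean of 16.1 is under the filter signal. Fn1 (fibronectin) fell by 2.77 (SE 0.35, limma adjusted p = 6.2e-05). Mfap4 fell by 2.61, Fbln1 by 2.26, Eln by 1.79, Mfap5 by 1.77, Fbn1 by 1.74 and Fbln2 by 1.58. Their limma adjusted p ran up to 0.0026, that of Eln. The other Eln probe set (1395753_at) did not fall by the test, at -0.31 (SE 0.27, limma adjusted p = 0.94), and its groups overlapped. Fbln5 read -0.87 (SE 0.31) with a 95% interval from -1.53 to -0.21 for the change relative to the median gene. Its scaled change did not pass the test (limma adjusted p = 0.19), and with arrays scaled to a common 2% trimmed mean it did (limma adjusted p = 0.037). The comparisons with control and with short-term muscle share arrays and are not independent of each other.

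At 1 week, with 2 arrays, the 8 genes were higher than control, and 6.17% of all genes were called higher (683, or 1277 with the trimmed mean and 212 without rat 12). The median change was 1.79 for the 9 genes, from 0.25 for Fbln5 to 2.89 for Emilin1. Leaving out 1 of the 2 muscles leaves an arm of 1, which is then taken to vary like the other groups. Without rat 12 Mfap4 changed by 1.68 in place of 2.11 (limma adjusted p = 0.10) and Emilin1 by 2.47 in place of 2.89 (limma adjusted p = 0.14), and neither passed the test. Without rat 13 Eln changed by 1.5 in place of 1.79 and did not pass (limma adjusted p = 0.078). At 2 weeks the same 8 genes were higher, with a median of 2.01, where 9.84% of all genes were called higher (1089, or 2255 with the trimmed mean and 403 without rat 27). Without rat 27 Emilin1 changed by 2.00 in place of 3.23 and did not pass at 2 weeks (limma adjusted p = 0.12). Without rat 25 Fbln5 was called higher (1.13 in place of 0.45, limma adjusted p = 0.027).

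Within the early weeks the level did not move further by the test. None of the 9 passed for weeks 2 to 4 against week 1 (0.452% of all genes were called in either direction, 0.217% higher), with 0 at an unadjusted p under 0.05 where 14.6% of all genes had one. On the probe sets that stand for the genes all 9 changes were above 0 all the same, from 0.03 for Fbn1 to 0.54 for Mfap4. Their median was 0.31, and 50% of all genes lie above 0 by construction. The other probe sets of Eln, Fbn1 and Fbln1 were below 0, at -0.04, -0.19 and -0.70, the last from values near the floor. Among the time points the mean signal of Eln, Fbln1, Fbln2 and Emilin1 was highest at 4 weeks, and that of Fbn1, Fbln5, Mfap4, Mfap5 and Fn1 at 3 weeks. Weeks 3 and 4 hold 1 array each, and neighbouring weeks from 1 to 4 lie within the spread between the muscles of a week for Mfap4, Mfap5, Fn1 and Emilin1. For Fbln2 and Eln the mean signal was higher at each later week, with 1053, 1185, 1516 and 1822 at weeks 1 to 4 for Fbln2. For Eln it was 277, 311, 349 and 370 on the brighter probe set. The other Eln probe set had a log2 mean of 6.89 at week 1 and 6.72 at week 2.

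At 6 weeks most of the genes lay between the control and short-term levels. Eln, Fbln2, Fbln5, Mfap4 and Mfap5 were higher in both 6-week muscles than on any control, that is 5 of 9, where 5.14% of all genes were. The margin of Fbln5 was slight, at 107.2 in rat 62 beside a highest control of 107.1. On the deposited signals it did not hold, with 105 and 110 beside 112 on the controls of rats 61 and 62. No gene at all was called against control at this time by limma (0% of all genes, 4.38% or 485 genes at an unadjusted p under 0.05). Of the 9, Eln (0.94, unadjusted p = 0.021), Fbln2 (0.42, unadjusted p = 0.030) and Fbn1 (0.49, unadjusted p = 0.040) had an unadjusted limma p under 0.05, and their adjusted p was 0.99. Such a p with a change above 0 was found for 1.13% of all genes. The median of the 9 was 0.42.

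Rats 61 and 62 allow the tenotomized right muscle to be set beside the left muscle of the same animal. In rat 61, 7 of the 9 genes were higher on the right, and in rat 62 it was 8, with median differences of 0.39 and 0.38 relative to the median gene of the pair; 50% of all genes are higher by construction. Eln, the elastin gene, went from 100.3 to 191 in rat 61 and from 125 to 184 in rat 62. Fbln1 went from 24.3 to 43.8 and from 22.7 to 34.6. Eln, Fbln1, Fbln2, Fbln5, Mfap4 and Mfap5, 6 of the 9, read higher on the right in both animals. For Fbln5 in rat 62 the right read 107.2 and the left 107.1, while the deposited signals were 110 and 112 in that order. Fbn1 differed between the animals, from 1358 to 1339 in rat 61 and from 1404 to 2132 in rat 62. Emilin1 moved in opposite directions, from the floor to 26.3 and from 37.0 to the floor, and Fn1 read 1235 and 1053 in rat 61 but 1201 and 1297 in rat 62. With 2 pairs no test was made.

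The 16-week and 22-week muscles are single arrays and carry no test. At 16 weeks Fbn1, Fbln5 and Fn1 lay below all 4 controls, where 14% of all genes did, and the other 6 lay among them. At 22 weeks 7 of the 9 genes lay below all 4 controls, where 16.1% of all genes did and 44.1% lay above. The exceptions were Fbln1, at 24.0 just above its lowest control of 22.7, and Emilin1, at the floor like 1 control. The change from the control mean on that array ran from -1.89 for Fn1 to -0.56 for Fbln1, with a median of -1.33. The summed fibroblast marker signal of the 22-week muscle, 6898, was also the lowest of the 14 arrays, as was its summed macrophage signal of 370.1. Its summed tendon signal (1084) was the lowest as well, and its summed slow fibre signal (88542) the highest. The same array had the highest hybridisation spike-in signal of the 14 (1441), the lowest deposited median (29.7) and the highest poly-A spike-in signal of its group (225). Its 3' to 5' ratios of 2.78 for Gapdh and 3.74 for actin were the highest of its group. The control of rat 62 had a like Gapdh ratio (2.78), and short-term rat 27 a higher actin ratio (3.87). The part of any of these was not tested.

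A slope over the log2 of the week in the 10 tenotomized muscles was below the threshold for the same 8 genes, where 5.49% of all genes were called lower. The median slope was -0.62 per doubling of the time, from -1.02 for Emilin1 to -0.28 for Fbln5, which did not pass (limma adjusted p = 0.31). Nor did the other Eln probe set, at -0.16 (limma adjusted p = 0.67). The calls of the 8 rest on the 22-week muscle, as do most of those over all genes. Without it 37 genes in all were called lower, in place of 607. None of the 9 passed then, with limma adjusted p from 0.062 (Fn1) to 0.20 (Fbln2) among the 8, and their slopes lay between -0.92 (Emilin1) and -0.34 (Fbln2).

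Eln, Fbn1 and Fbln1 were each read by a pair of probe sets, and those of Eln disagreed. In short-term against control muscle 10 of the 12 probe sets were called higher, beside 11.6% of the 20334 probe sets tested. The dimmer Eln probe set (1395753_at) read 89.1, 120, 76.9 and 146 on the controls and 93.2 to 150 (median 116) on the short-term arrays. These groups overlapped almost fully. The change of this probe set relative to the median gene was 0.45 (SE 0.27), with a 95% interval from -0.12 to 1.02. Its scaled change was 0.14 (limma adjusted p = 0.70). The log2 ratio of the brighter to the dimmer Eln probe set was 1.51 higher in short-term than in control muscle, without overlap (exact 2-sided permutation test, p = 0.0095, the smallest that 6 and 4 arrays allow, 0.029 after adjustment over 6 such tests). In long-term muscle it was 1.45 lower than in short-term muscle (p = 0.0095, exact 2-sided permutation test, adjusted 0.029), and against control the difference was 0.06 (p = 0.94, exact 2-sided permutation test). This ratio was looked at after the values had been seen. The rise of Eln, its later fall and its slope over time therefore rest on the brighter of its probe sets. That probe set had the higher group mean in short-term muscle alone, so it stands for Eln through the group in which it rose. The choice favoured the call of Eln, which is counted among the 8 genes. With the mean of both probe sets Eln was called as well.

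For Fbn1 both probe sets rose. The dimmer (1387351_at) read 527, 387, 434 and 547 on the controls and 1043 to 1825 (median 1380) on the short-term arrays, with no overlap. Its change was 1.86 (SE 0.34, limma adjusted p = 0.0020). The log2 ratio of the Fbn1 probe sets differed by -0.33 between short-term and control muscle (p = 0.057, exact 2-sided permutation test, adjusted 0.11). The dimmer Fbln1 probe set (1385452_at) lay at the floor on all 4 controls, on 1 short-term array and on 3 long-term arrays. It read 21.5 to 31.3 on the other 5 short-term arrays. It passed the filter on low signals through short-term arrays alone, so its place among the 10 called probe sets is no support, and no fold is given.

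**Figure D3:**
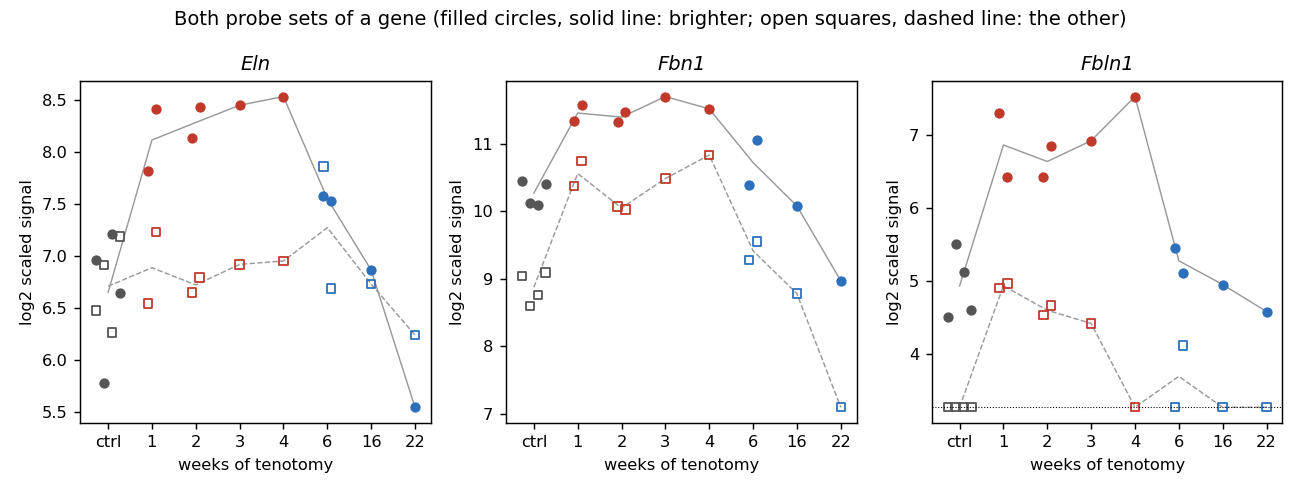
Log2 scaled signal (y axis) of both probe sets of Eln, Fbn1 and Fbln1 by weeks of tenotomy (x axis, not to scale in time); filled circles and solid lines are the brighter probe set, open squares and dashed lines the other, with grey control, red short-term and blue long-term arrays and the floor of 9.69 as a dotted line. For Eln the red circles leave the controls while the red squares, 93.2 to 150, stay among them.

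The 9 genes differed in how alike their profiles were over the 14 arrays, measured as the root mean square distance between log2 profiles set against each gene's control mean. Fbln2 and Mfap5 were nearest to each other (0.25), followed by Fbn1 and Fbln2 (0.26) and Mfap4 and Fn1 (0.32). Fbln5 and Emilin1, the smallest and the largest change, were farthest apart (1.78). Among genes that are no members, those nearest to the mean profile were C1r (0.19), Arpc1b (0.20), Lrp1 (0.22), Gpx7 (0.22) and Col6a3 (0.22), where the median gene stood at 1.40. Nearest to Eln were Col3a1 (0.39), Gap43 (0.40) and Cd248 (0.41). Emilin1, the member farthest from the mean profile (1.00), had Fcrl2 (0.60), Mmp23 (0.65) and Fkbp10 (0.67) as its nearest genes. These distances are descriptions and carry no test.

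Other genes of elastic fibre assembly were followed in 6 lists of 54 genes, of which 45 were tested. The lists, too, were chosen with earlier results of these data known. In short-term muscle 26 were higher than control and 2 lower, with a median of 1.26 (12.3% and 39.6% of all genes). In long-term muscle none differed from control by the test, and against short-term muscle 27 were lower and 3 higher, where 12.1% of all genes were lower and 42.4% higher. Fbn2 and Mmp12 of these lists were tested only because their short-term arrays passed the filter, so their calls are counted but support nothing.

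Enzymes that crosslink elastin rose in 4 of 5 cases. Lox, a lysyl oxidase that starts the crosslinks of elastin and collagen, rose by 3.26 (SE 0.37, limma adjusted p = 2.3e-05), Loxl2 by 3.15, Loxl1 by 2.82 and Loxl3 by 1.58. The fifth, the transglutaminase Tgm2, read 0.55 (limma adjusted p = 0.43). In long-term muscle Lox read -0.18 and Loxl1 0.17 against control.

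Among relatives of fibrillin and the fibulins 5 of 8 rose. Fbn2, the fibrillin of developing tissue, had a mean at the floor in control and long-term muscle and a mean signal of 50.1 in short-term muscle, and no fold is given. Efemp2, a fibulin needed for elastin crosslinking, rose by 2.02, Hmcn1 by 1.84 and Ltbp2, a relative of the proteins that bind latent TGF-beta, by 1.77.

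Of other proteins associated with microfibrils 6 of 12 rose. Mfap2, the close relative of Mfap5, rose by 3.81 (SE 0.47, limma adjusted p = 3.7e-05) from a mean signal of 23.2 to 256, the proteoglycan Bgn by 2.93, Vcan by 2.33 and Mmrn1 by 1.85.

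Receptors of fibronectin and elastin were mixed, with 5 of 12 higher and 2 lower. The integrin subunits Itgb3 and Itga8 rose by 1.84 and 1.46, while Sdc4, a heparan sulfate proteoglycan of the cell surface, fell by 0.83. Ctsa, a partner of the elastin-binding protein, rose by 1.26.

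Proteases that cut elastin rose in 4 of 5 cases: Ctsk by 3.34, Mmp2 by 2.43 and Ctss by 1.87, the other being Mmp12, whose mean was 10.3, near the floor, on the controls and 80.1 on the short-term arrays. Of the TGF-beta ligands Tgfb1 rose by 2.35 from a dim control mean of 16.7, Tgfb3 rose by 1.46 and Tgfb2 read 0.04 (limma adjusted p = 0.12).

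**Figure D4:**
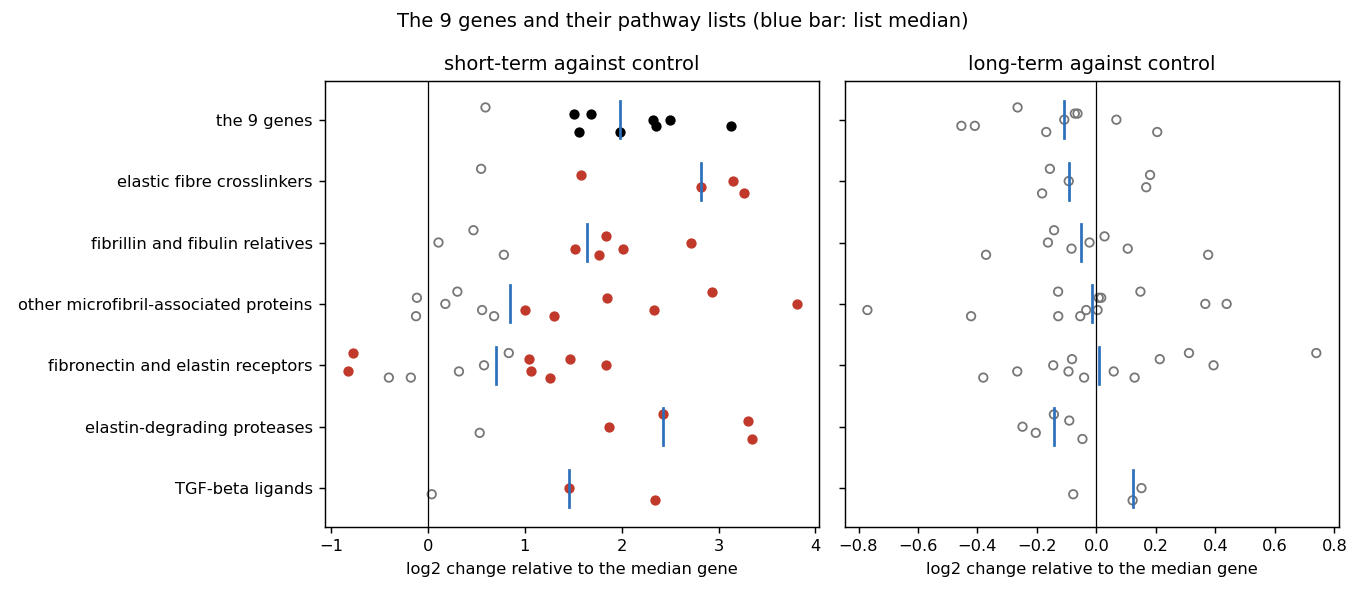
Log2 change relative to the median gene (x axis) of the 9 genes and of each list (y axis), in short-term (left) and long-term (right) muscle against control; points are genes, filled where the limma test was passed (black for the 9 genes) and open where not, and blue bars are medians. The filled points lie mostly right of 0 on the left, with a median of 1.99 for the 9 genes, and the right panel, drawn to a narrower scale, has no filled point.

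The muscles were measured whole, so more cells of a type and more RNA per cell cannot be told apart. Fibroblast markers moved with the 9 genes: 7 of 10 were higher in short-term muscle, and their summed signal was 13283 to 18873 on the controls, 24745 to 41938 on the short-term arrays and 6898 to 20421 on the long-term arrays. The list holds matrix genes itself, and among its receptors and surface proteins Pdgfra rose by 1.31, Pdgfrb by 1.12 and Thy1 by 3.53, while Pi16 read 0.75 (limma adjusted p = 0.32). Macrophage markers were higher in 6 of 8 cases, with sums of 685 to 1411, 1828 to 3593 and 370.1 to 1584. Tendon markers were higher in 3 of 5 cases, with sums of 3387 to 5106, 4775 to 14464 and 1084 to 6137, and Schwann cell markers in 2 of 2 tested (sums 145 to 249, 170 to 750.1 and 144 to 265). Beside these counts, 12.3% of all genes tested were called higher in short-term muscle.

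Vessel walls hold elastic fibres too, and their markers were followed as well. Of 7 smooth muscle markers 1 was higher, Tagln, and the sums were 2320 to 2683 on the controls, 1673 to 4407 on the short-term arrays and 2672 to 3058 on the long-term arrays. At 1 week these sums were 1801 and 1673, below all controls. Sums are not set against the median gene, which moved by -0.33 at that time. Relative to it the 7 markers had a median of -0.14 at 1 week. Of the 7, 3 were called lower than control then, as were 3182 of all 11064 genes. On the 4 arrays of weeks 2 to 4 the sums were 3396 to 4407, above all controls. Of the 7 markers, 3 were called higher in weeks 2 to 4 than in week 1, where 0.217% of all genes were. Of 6 endothelial markers none was higher and 1, Kdr, was lower, where 12.3% of all genes were called higher and 39.6% lower. The endothelial sums were 2311 to 3107, 1627 to 3299 and 2362 to 3113. Of 4 adipocyte markers tested 1 was lower, which is not above the share of all genes. Their changes ran from -0.31 to 1.45 with a median of 1.05. The adipocyte sums were 2347 to 3146, 1177 to 2924 and 2063 to 3390, with Fabp4 the brightest gene in them (1004 to 3129). At the floor were Lep on all 14 arrays and the Schwann cell marker Sox10 on 9. The part of cell numbers in the changes of the 9 genes was not tested.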

How the data were processed

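Soleus muscles of 12 rats were measured on 14 arrays, grouped by the sample group and week in the labels. The authors deposited probe set signals made with MAS5, per the submitters' processing notes, as intensity on a linear scale; the scaling target, software version and detection calls are not given in the sources used here. Precision is limited by the number of arrays.

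From the deposited intensity, signals were taken to log2, 57 control probe sets left out, and array medians were made equal by a shift. Signals under the pooled 25th percentile (9.69) were raised to it. Of 31099 probe sets 20826 carried 1 gene symbol, 436 several and 9780 none; the platform annotation used can be old. The probe set with the highest mean stood for a gene. Genes above the pooled 40th percentile (22.0) on at least 4 arrays were tested, 11064 of 14217. All arrays entered 1 fit in limma 3.58.1 (R 4.3.3) with an intensity trend; other fits held a mean per time point or the slope on log2 week. Intervals are at 95%. Scripts were tested on simulated data. Exact permutation tests used SciPy 1.17.1. Promoters are from RefSeq (GRCr8); the labels name no build, so no gene position is given.

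The members and gene lists were chosen with earlier results of these data known. All 9 members are named; of each list, at most the 4 with the largest change among those called in short-term muscle, save where a gene that did not pass, fell or stood for a count of 1 is named, chosen after its value was seen. Alternatives were 5 other scalings, no floor, no filter, the mean of a gene's probe sets, no trend, the rat as a block, and each array left out.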

Additional observations from a re-analysis of the deposited data

Results flagged for a closer look

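The dimmer Fbln1 probe set (1385452_at) had 1 array apart from the rest of its group in both tenotomized groups. On the 4-week array it lay at the floor, 3.28 on the log2 scale, while the other 5 short-term arrays read 21.5 or more. On the 6-week array of rat 62 it read 17.4, or 4.12 on the log2 scale, while the other 3 long-term arrays lay at the floor. Across 36 groups tested for such a gap 2 were found. The usual rate of about 1 in 20 does not apply, because values at the floor are equal. With 3 arrays at the floor any value above it is flagged, and a group wholly at the floor cannot be.

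The change from control differed between long-term and short-term muscle for 8 genes, by the test of long-term against short-term muscle given above (limma). The difference was -3.59 for Emilin1, -2.77 for Fn1, -2.61 for Mfap4, -2.26 for Fbln1, -1.79 for Eln, -1.77 for Mfap5, -1.74 for Fbn1 and -1.58 for Fbln2. For Fbln5, the elastin-binding fibulin, it was -0.87 and did not pass.

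The poly-A spike-ins, which no comparison of genes used, had a median signal of 214 on the short-term arrays, above the 97.3 to 114 of the controls.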

How the results depend on the processing

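The 8 genes called in short-term against control muscle were called under all 6 scalings and in every other alternative tried, each array left out included, and long-term against control called 0 of 9 in each. Long-term against short-term muscle called 8, or 9 with the 2% trimmed mean. The slope over time called 0 to 8 genes as each array was left out, with 0 without the 22-week array (long-term replicate 4), and Fbln2 also lost it on the deposited scale (limma adjusted p = 0.056) and without the 16-week array (0.058). Emilin1 lost its 1-week call with no filter (limma adjusted p = 0.074). The dimmer Fbln1 probe set lost its long-term against short-term call without long-term replicate 1, 3 or 4 (limma adjusted p 0.059 to 0.065). No result reversed. The median difference of the 2 pairs of muscles was 0.38, and 0.42 with quantile normalization. With the rat as a replicate block (consensus correlation 0.11, paired by rats 61 and 62), 8 of 9 genes were called in short-term against control muscle, and no call of the 9 genes changed; the slope has no such fit because no rat gave 2 tenotomized muscles. The 22-week array lay below all controls for 7 to 8 genes, a count added after seeing the data.

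Counts over all genes moved more. In short-term muscle 1362 were called higher and 4383 lower, against 2584 and 2015 with the trimmed mean, 2080 and 2800 with the 75th percentile, 2026 and 2459 with quantile normalization and 1999 and 2933 with the median of genes tested. Long-term against short-term gave 4693 higher and 1335 lower, and 1895 and 2591 with the trimmed mean, or 3987 in all on the deposited scale. The slope called 3911, but 1044 to 1836 under other scalings, 2290 without the 16-week and 391 without the 22-week array. Week 1 called 3865, but 2317 to 2680 under other scalings, 1709 without rat 12 and 2396 without rat 13. Week 2 called 5260, and 3340 without rat 27. Weeks 2 to 4 against week 1 called 50, with 9 to 183 under other scalings, 29 with no trend and 1 to 378 as arrays were left out. Week 6 called 0, but 37 without the control of rat 61 and 4 with no filter. Long-term against control called 1 with no filter.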
